A study of Mus musculus with 6 samples.

Results

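The axon guidance ligands and receptors are 68 genes, read on 72 of the 35556 rows of the arrays and making up 68 of 22360 named genes. They were taken by symbol as the semaphorins, plexins, neuropilins, ephrins, Eph receptors, Slits, Robos, netrins and Unc5 receptors, and all 68 mouse genes whose RefSeq symbol fits that rule had a row. There were 35 ligands and 33 receptors, and for the 4 genes with 2 rows the row with the higher mean was used. RNA came from Clone 4L.1.4, a tertiary clone derived from the mouse bone marrow mesenchymal stem cell population MSC21, and from MSC21 itself, with 3 arrays of each. Cells of both groups came from mouse bone marrow, were cultured in a commercial stem cell medium, and were harvested at confluence with no drug or gene change named. No strain, age or sex of the mice is given in the labels, nor whether the cultures of a group trace back to different animals. The clone group is 1 clone and the population group 1 population, so p-values measure the spread between cultures of these.

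Axon guidance genes encode secreted or membrane-bound cues and the receptors that read them, and were first studied for steering growing nerve fibres. Semaphorins signal through plexins, with neuropilins as partners for most secreted ones. Ephrins bind Eph receptor kinases on neighbouring cells and can signal back into their own cell, Slits act through Robos, and netrins through Dcc, Neo1 and Unc5 receptors. In bone and marrow stroma the same genes are known for regulating osteoblasts, osteoclasts, blood vessels and nerve fibres: Sema3a shields bone from resorption in mice, Sema4d from osteoclasts restrains osteoblasts, and Efnb2 with Ephb4 couples both cell types.

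Values are log2 expression levels as the authors deposited them, so 1 unit is a 2-fold difference. Array medians ran from 5.19 to 5.25 and lower quartiles from 4.54 to 4.58. A level near or below these has no measured floor, which makes the size of a difference inexact there. Of 14 stromal marker genes, 2 (Eng and Alcam) lay below the array medians in both groups, and the list had 4 members higher and 6 lower in the clone. At an adjusted p below 0.05 in limma, 71.4% of the list was called, against 29.0% of named genes. Col1a1 stood at 12.59 in the clone and 12.67 in the population and Prrx1 at 11.72 and 11.22, while Pdgfra and Cxcl12 were higher by 1.43 and 1.21 and Lepr, Ly6a and Cd44 fell by 1.83, 0.98 and 0.81 on the log2 scale. Thy1 (4.61 in the clone, 6.43 in the population), Nt5e (4.55 and 6.35) and Eng (4.88 and 4.89) lay low in the clone, and Eng in both groups. All 10 endothelial markers lay below the array medians in both groups, as did 8 of 10 leukocyte, 7 of 9 glial and 7 of 9 neuronal markers, Ptprc, Pecam1 and Sox10 being low or near the medians in both. The mean level over the neuronal markers was 4.55 to 4.62 in clone arrays and 4.75 to 4.79 in population arrays. Among them Tubb3 lay above the array medians in both groups, at 6.22 in the clone and 6.44 in the population, and was not called. Stmn2 fell by 0.96 and Map2 by 0.28 on the log2 scale. Map2 lay below the medians in both groups (4.42 in the clone, 4.71 in the population). The leukocyte markers averaged 4.70 to 4.75 in clone arrays and 4.77 to 4.83 in population arrays, with Lyz2 0.35 higher and Cd53 0.87 lower. The glial marker Mbp was 0.29 lower, and the part of such cells in any result was not tested. Fewer cells making a transcript and less transcript per cell cannot be told apart in these bulk samples.

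Of the 68 members, 30 (44.1%) passed the test between clone and population (limma, adjusted p below 0.05), 14 higher and 16 lower in the clone. The same test called 29.0% of named genes, 14.5% in each direction, and 23.8% of all rows. Adding a minimum difference of 1.5-fold left 11 members higher and 11 lower (16.2% each way), against 4.40% and 6.56% of named genes. The median difference over the members was -0.05, close to the -0.01 of all named genes, while the median size of a difference without its sign was 0.15, against 0.11. Clone and population arrays did not overlap for 36 members (52.9%), where 43.1% of named genes did not. Of the members, 29 lay below the medians of all 6 arrays in both group means, and the differences of the 38 that were not called ran from -0.15 to 0.27. Changes went both ways in 5 of the 9 families, as the plot of all members shows: semaphorins had 4 higher and 6 lower of 20, plexins 3 and 1 of 9, neuropilins 1 and 1, ephrins 3 and 2 of 8, and Eph receptors 3 and 2 of 14. In the other 4 families 1 of 3 Slits, 1 of 4 Robos and 2 of 4 Unc5 receptors were lower, and limma called 0 members higher. At an unadjusted p under 0.05 the count of higher members was also 0, both in limma and in the authors' deposited table. Of the 4 netrins 0 were called, again with 0 at an unadjusted p under 0.05 in limma and 0 in the authors' deposited table.

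**Figure D1:**
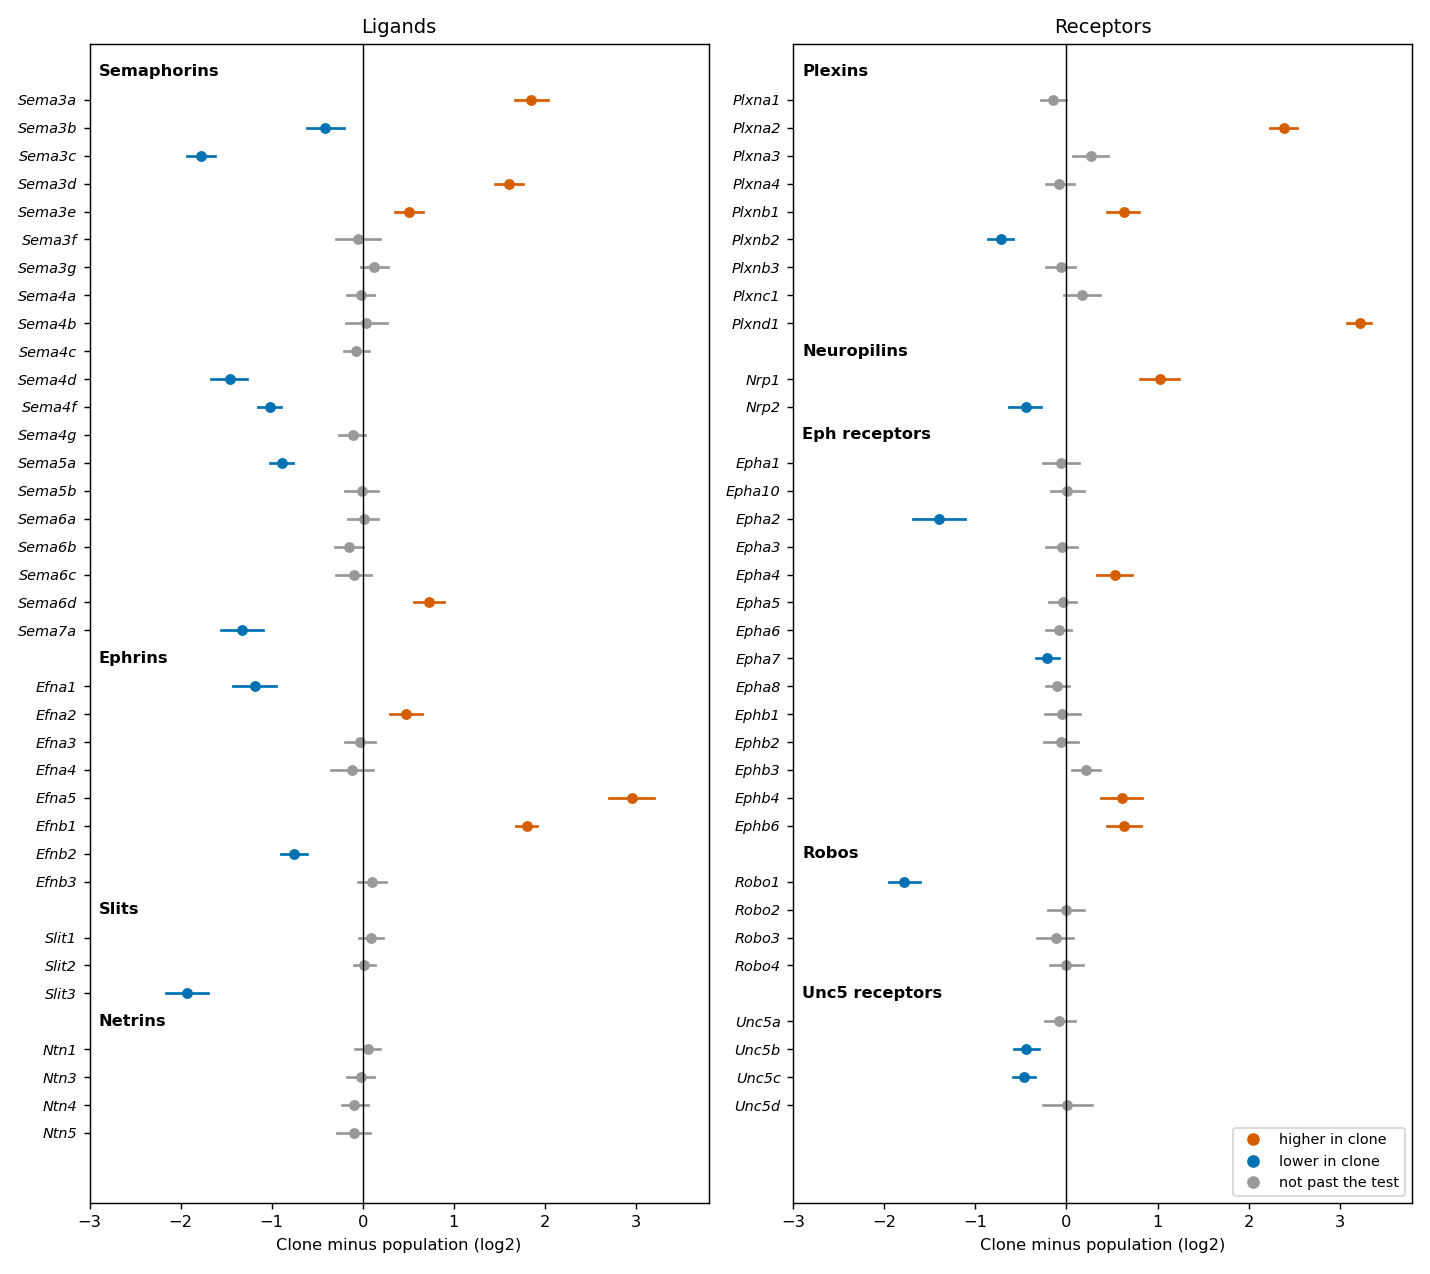
Clone minus population difference (log2) for all 68 members, ligands on the left and receptors on the right, with 95% confidence intervals from limma (3 arrays per group). Orange marks members higher in the clone and blue members lower at an adjusted p under 0.05; Plxnd1 at 3.22 and Efna5 at 2.96 stand farthest to the right, Slit3 at -1.93 and Robo1 at -1.78 farthest to the left.

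The promoters below belong to the receptor and the secreted ligand gene with the largest rises among plexins and semaphorins, Plxnd1 and Sema3a, and to the Slit3 and Robo1 genes, a ligand and receptor that both fell. Each runs from 250 bases before the annotated start to 50 bases after it, 5′ to 3′ on the gene's strand, from RefSeq on GRCm38.p6. Capitals mark CpG dinucleotides, the sites of DNA methylation in mammals.
Plxnd1 promoter (chr6:115994956-115995255, minus strand): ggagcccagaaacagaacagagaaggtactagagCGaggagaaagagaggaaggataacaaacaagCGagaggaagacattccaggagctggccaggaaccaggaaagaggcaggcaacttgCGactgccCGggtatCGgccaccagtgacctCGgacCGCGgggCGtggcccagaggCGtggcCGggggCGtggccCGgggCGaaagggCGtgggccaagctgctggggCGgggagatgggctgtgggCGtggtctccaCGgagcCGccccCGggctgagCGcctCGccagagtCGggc
Sema3a promoter (chr5:13396534-13396833, plus strand): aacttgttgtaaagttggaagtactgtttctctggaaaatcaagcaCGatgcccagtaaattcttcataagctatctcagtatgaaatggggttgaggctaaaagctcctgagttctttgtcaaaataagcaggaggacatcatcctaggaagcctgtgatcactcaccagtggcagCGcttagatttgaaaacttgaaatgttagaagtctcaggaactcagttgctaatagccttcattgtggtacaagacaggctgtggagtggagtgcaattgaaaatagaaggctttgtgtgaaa
Slit3 promoter (chr11:35121206-35121505, plus strand): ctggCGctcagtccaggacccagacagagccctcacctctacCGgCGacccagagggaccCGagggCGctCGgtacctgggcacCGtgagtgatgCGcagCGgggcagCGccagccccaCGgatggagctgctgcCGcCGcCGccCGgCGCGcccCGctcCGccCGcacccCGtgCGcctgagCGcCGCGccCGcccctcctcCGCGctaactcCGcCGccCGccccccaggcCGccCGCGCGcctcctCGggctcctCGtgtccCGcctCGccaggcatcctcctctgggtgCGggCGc
Robo1 promoter (chr16:72662899-72663198, plus strand): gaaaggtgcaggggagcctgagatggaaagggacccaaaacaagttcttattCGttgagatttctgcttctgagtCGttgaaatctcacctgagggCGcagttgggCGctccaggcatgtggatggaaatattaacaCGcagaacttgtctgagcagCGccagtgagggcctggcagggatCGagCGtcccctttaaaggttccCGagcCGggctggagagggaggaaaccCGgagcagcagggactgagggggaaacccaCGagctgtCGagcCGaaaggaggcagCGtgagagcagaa
The Sema3a promoter held 2 CpGs and the Plxnd1 promoter 23, while the Slit3 promoter held 41 and the Robo1 promoter 15. RefSeq promoters of this length had a median of 7, and those of members a median of 19 over 75 promoters of the 59 members matched. Members at least 1.5-fold higher had a median of 14 (2 to 38, 12 promoters) and those at least 1.5-fold lower a median of 20 (2 to 42, 15 promoters), ranges that overlap almost fully. The GC box GGGCGG, read on both strands, lay in 66.7% and 73.3% of these promoters, against 70.7% for all members and 35.7% for all RefSeq promoters. The hypoxia response core ACGTG lay in 16.7% and 13.3%, against 19.6% of all RefSeq promoters, and the TATA motif TATAAA in 0% and 6.67%, against 13.6%. The GC box contains a CpG, as does ACGTG, so these counts are not separate from the CpG counts. Such matches describe the letters of these windows and are not evidence of binding.

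Secreted class 3 semaphorins changed in opposite directions, 3 higher and 2 lower of 7. The called share was 71.4%, against 29.0% of named genes. Sema3a, a repellent of nerve fibres that acts through Nrp1 and A-type plexins, had levels of 12.05, 11.87 and 11.96 in the clone arrays, against 10.08, 10.00 and 10.23 in the population arrays. Its difference was 1.85 ± 0.08 (log2 ± SE), or 3.61-fold (adjusted p = 1.55e-05). Every clone array lay above every population array, and the gene stood far above the array medians in both groups. Sema3d, a cue of neural crest and vessel development, had 6.35, 6.19 and 6.20 in the clone and 4.71, 4.59 and 4.63 in the population. It rose by 1.61 ± 0.07 (adjusted p = 1.37e-05) from a population level at the low end of the arrays, where the 3.05-fold size is inexact. Sema3e, which binds Plxnd1 without a neuropilin, was higher by 0.51 ± 0.06 (6.70 in the clone, 6.19 in the population, adjusted p = 0.00147).

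Sema3c, a secreted cue of heart outflow tract development, went the other way. Its levels were 4.68, 4.82 and 4.76 in the clone and 6.62, 6.47 and 6.48 in the population, a difference of -1.77 ± 0.06 (adjusted p = 9.32e-06). The clone arrays thus lay near their lower quartiles. Sema3a, Sema3c, Sema3d and Sema3e all lie on chromosome 5, whose genes as a whole were slightly higher in the clone (median 0.19 relative to all chromosomes). With chromosomes centred the difference of Sema3c was -1.98, that of Sema3a 1.65, that of Sema3d 1.40 and that of Sema3e 0.31 (adjusted p = 0.0101), so the 3 rises were smaller and the fall larger, and all 4 passed. Sema3b was lower by 0.41 (4.99 in the clone, 5.40 in the population, adjusted p = 0.0154), a call that ended in 7 of 16 alternatives, among them the values without clone array 1. Sema3f, a ligand of Nrp2, had 7.10 ± 0.14 in the clone and 7.15 ± 0.15 in the population (SD, n = 3 each), and its difference lay between -0.29 and 0.19 with 95% confidence.

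Receptors of these secreted cues included the largest rise of any member. Plxnd1, a plexin known for patterning blood vessels, had 9.33, 9.18 and 9.21 in the clone arrays and 5.99, 6.04 and 6.04 in the population arrays. The groups stood 3.22 ± 0.06 apart, a 9.29-fold difference (adjusted p = 5.83e-07) that is more than 10 times the spread within either group. Plxna2, a receptor for class 3 and class 6 semaphorins, had 7.89, 7.97 and 7.79 in the clone and 5.49, 5.46 and 5.53 in the population, 5.23-fold higher (2.39 ± 0.06, adjusted p = 2.61e-06). Other A-type plexins did not pass the test: Plxna1 had 9.67 in the clone and 9.81 in the population (adjusted p = 0.125), Plxna3 had 8.10 in the clone and 7.83 in the population (adjusted p = 0.0571), and Plxna4 lay below the array medians in both. The neuropilins, which bind secreted semaphorins and VEGF, changed in opposite directions. Nrp1 had 9.03, 9.05 and 8.92 in the clone and 7.85, 8.15 and 7.91 in the population, 2.04-fold higher (1.03 ± 0.09, adjusted p = 0.000305). Nrp2 had 9.16, 9.03 and 9.03 in the clone and 9.41, 9.58 and 9.59 in the population, a difference of -0.45 ± 0.07 (adjusted p = 0.0041). Neither gene's arrays overlapped between groups.

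**Figure D2:**
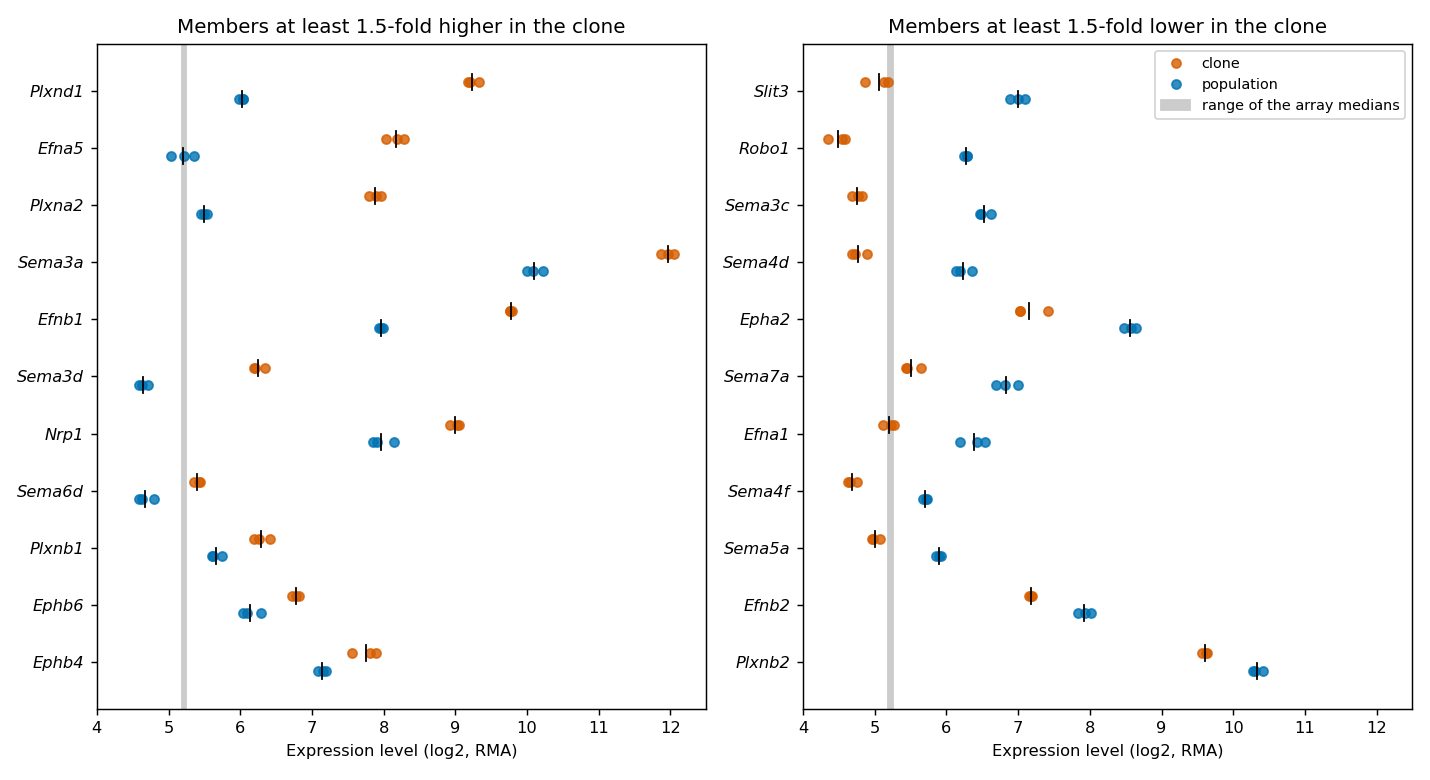
Expression level (log2, RMA) on each of 3 clone arrays (orange, upper row of a gene) and 3 population arrays (blue, lower row) for the 11 members at least 1.5-fold higher and the 11 at least 1.5-fold lower in the clone. Black ticks are group means and the grey band spans the 6 array medians, 5.19 to 5.25; Robo1, Sema3c, Sema4d, Sema4f and Sema5a lie left of the band in the clone, Sema3d and Sema6d left of it in the population, and no gene's groups overlap.

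Of 13 membrane-bound semaphorins, 4 were lower and 1 higher in the clone, against 14.5% of named genes in each direction. Sema4d, a ligand of Plxnb1 and Plxnb2, had 4.73, 4.68 and 4.89 in the clone and 6.19, 6.35 and 6.14 in the population (-1.46 ± 0.08, adjusted p = 4.45e-05). Sema7a, a lipid-anchored semaphorin that acts through integrins and Plxnc1, had 5.65, 5.43 and 5.45 in the clone and 6.82, 6.69 and 7.00 in the population (-1.33 ± 0.10, adjusted p = 0.000154). Both sets of arrays stood well apart. Sema4f had 4.63, 4.66 and 4.75 in the clone and 5.71, 5.68 and 5.73 in the population, a difference of -1.02 ± 0.05 (adjusted p = 3.58e-05). Sema5a, which carries thrombospondin repeats, had 5.07, 4.97 and 4.96 in the clone and 5.90, 5.92 and 5.86 in the population (-0.89 ± 0.05, adjusted p = 6.38e-05). Clone levels of Sema4d, Sema4f and Sema5a were below all array medians, so the sizes of these falls are inexact. Sema6d, a ligand of Plxna1, rose, with 5.44, 5.42 and 5.35 in the clone and 4.80, 4.59 and 4.63 in the population (0.73 ± 0.07, adjusted p = 0.00043). The remaining 8 membrane semaphorins had differences between -0.15 and 0.04, among them Sema4c at 7.67 in the clone and 7.74 in the population and Sema4b at 6.76 and 6.72.

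B-type plexins, the receptors of class 4 semaphorins, moved apart. Plxnb1 had 6.41, 6.19 and 6.26 in the clone and 5.74, 5.62 and 5.61 in the population, 1.55-fold higher (adjusted p = 0.00107). Plxnb2 had 9.64, 9.62 and 9.57 in the clone and 10.31, 10.27 and 10.41 in the population, 1.65-fold lower (-0.72 ± 0.06, adjusted p = 0.000195). Several of these falls lie on chromosomes whose genes were lower as a whole in the clone. The chromosome medians, relative to all chromosomes, were -0.61 for chromosome 13, which holds Sema4d, and -0.54 for chromosome 15, which holds Sema5a and Plxnb2. When the median of each chromosome was taken off, Sema4d differed by -0.90 (adjusted p = 0.000372), Sema5a by -0.38 (adjusted p = 0.00339) and Plxnb2 by -0.21 (adjusted p = 0.0294), so all 3 still passed but were smaller. Plxnc1 and Plxnb3 lay below the array medians in both groups and were not called.

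Ephrins showed the second largest rise of the members. Efna5, a lipid-anchored ligand of EphA receptors, had 8.29, 8.18 and 8.03 in the clone arrays and 5.36, 5.04 and 5.22 in the population arrays, a difference of 2.96 ± 0.10 or 7.78-fold (adjusted p = 7.07e-06). The population arrays lay around the array medians and the clone arrays far above them. Efna1, another EphA ligand, had 5.11, 5.27 and 5.23 in the clone and 6.19, 6.54 and 6.42 in the population, 2.27-fold lower (adjusted p = 0.000248). Efna1 lies on chromosome 3, whose relative median was -0.46, and with chromosomes centred its difference was -0.76 (adjusted p = 0.0014). Efna2 was higher by 0.48 ± 0.07 (6.17 in the clone, 5.69 in the population, adjusted p = 0.00376), and by 0.29 with chromosomes centred (adjusted p = 0.0263). Efna3 and Efna4 were not called.

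Transmembrane ephrins also split. Efnb1, in humans the gene of craniofrontonasal syndrome, had 9.76, 9.79 and 9.77 in the clone and 7.93, 7.99 and 7.97 in the population. It was 3.50-fold higher (1.81 ± 0.05, adjusted p = 2.66e-06), with SDs of 0.01 and 0.03 in the groups. Efnb2, the ligand of Ephb4, had 7.19, 7.18 and 7.15 in the clone and 8.01, 7.93 and 7.83 in the population, 1.68-fold lower (-0.75 ± 0.06, adjusted p = 0.000211). The difference for Efnb3 was 0.10, near the array medians, and did not pass (adjusted p = 0.358).

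Of the 14 Eph receptors, 3 rose and 2 fell in the clone, a called share of 35.7% against 29.0% of named genes. The largest difference was that of Epha2, an EphA receptor that binds Efna1. It had 7.02, 7.42 and 7.03 in the clone arrays and 8.47, 8.57 and 8.64 in the population arrays, 2.65-fold lower (-1.40 ± 0.12, adjusted p = 0.000273). Its clone arrays were the most spread of any member (SD 0.23), but none came near the population arrays. Ephb4, the receptor of Efnb2, had 7.56, 7.81 and 7.89 in the clone and 7.08, 7.19 and 7.16 in the population, 1.52-fold higher (0.61 on the log2 scale, adjusted p = 0.00367), and 0.40 higher with chromosomes centred (adjusted p = 0.0202). Ephb6, whose kinase domain is inactive, had 6.78, 6.82 and 6.72 in the clone and 6.10, 6.29 and 6.04 in the population, 1.55-fold higher (adjusted p = 0.0013). Both were higher on every clone array, so that Efnb2 fell while its receptor Ephb4 rose. Epha4, which binds ephrins of both classes, was higher by 0.53 ± 0.08 (5.50 in the clone, 4.97 in the population, adjusted p = 0.00317). Epha7 was listed 0.21 lower (4.40 in the clone, 4.61 in the population, adjusted p = 0.0298), at the low end of the arrays, and leaving out any of the 6 arrays ended this call. Its difference was 0.00 with chromosomes centred. Ephb2 had 6.36 in the clone and 6.42 in the population and did not pass, nor did Ephb3 (6.32 and 6.11, adjusted p = 0.0572), and the other 7 Eph receptors lay below the array medians in both groups.

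Slit3 and Robo1, a secreted cue and a receptor that binds Slits, both fell. Slit3 had 5.13, 4.87 and 5.19 in the clone arrays and 6.89, 7.00 and 7.09 in the population arrays, a difference of -1.93 ± 0.10 (adjusted p = 3.15e-05), the largest fall of any member. Robo1 had 4.54, 4.35 and 4.59 in the clone and 6.28, 6.29 and 6.25 in the population (-1.78 ± 0.07, adjusted p = 1.33e-05). The clone means of both lay below all array medians, that of Robo1 around the lower quartiles, so the sizes of 3.81-fold and 3.44-fold are inexact. Slit2, the other Slit with a level above the array medians, had 9.26, 9.27 and 9.30 in the clone and 9.26, 9.22 and 9.31 in the population. Its arrays overlapped and its difference lay between -0.10 and 0.14 with 95% confidence (adjusted p = 0.872), though with chromosomes centred it was -0.19 (adjusted p = 0.0383). Slit1, Robo2, Robo3 and Robo4 lay below the array medians in both groups and were not called.

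All 4 netrins lay below the array medians in both groups, with differences between -0.10 and 0.06. Ntn1, the best known of them, had 5.13, 5.15 and 5.18 in the clone and 5.03, 5.17 and 5.10 in the population (adjusted p = 0.588). Of their receptors, Unc5a (-0.08) and Unc5d (0.01) did not pass. Unc5a lay below the array medians in both groups (4.77 in the clone, 4.85 in the population). With chromosomes centred it was 0.49 higher (adjusted p = 0.00366). That setting takes the shift of chromosome 13 (median -0.58) off levels that barely differ as deposited. Unc5b, a repulsive netrin receptor, had 7.81, 7.74 and 7.91 in the clone and 8.28, 8.27 and 8.23 in the population, lower by 0.44 ± 0.06 (adjusted p = 0.00215). Unc5c was 0.47 lower, with 4.50, 4.44 and 4.55 in the clone and 4.95, 4.97 and 4.98 in the population, all at the low end (adjusted p = 0.000799); it lies on chromosome 3, and with chromosomes centred its difference was -0.05 (adjusted p = 0.532). Neo1, a receptor of netrins and RGM proteins that is not a member, had 9.63, 9.61 and 9.68 in the clone and 9.15, 9.15 and 9.24 in the population, 1.38-fold higher (adjusted p = 0.00102). Dcc, the attractive netrin receptor, was near the lower quartiles in both groups (4.45 in the clone, 4.54 in the population, adjusted p = 0.512).

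Other genes of guidance signalling were read from lists made by role. Of 25 other cues, receptors and adhesion partners, 5 were higher in the clone and 6 lower (median -0.03), against 14.5% of named genes in each direction. The largest difference was that of Draxin, a secreted antagonist that binds Dcc, listed under an older name. It had 7.48, 7.82 and 8.05 in the clone and 5.29, 5.33 and 5.22 in the population, 5.67-fold higher (adjusted p = 4.53e-05). Rgma, a ligand of Neo1, was 1.69-fold higher (0.76 ± 0.11), Itga1, an integrin subunit, 1.83-fold higher and Lrrc4c, a netrin G partner, 1.51-fold higher. Dscam, an adhesion molecule that also binds netrin, was 1.72-fold lower and Flrt2, an adhesion protein that binds Unc5 receptors, 1.54-fold lower. The clone level of Dscam was 4.8, below all array medians, against 5.59 in the population, so the size of its fall is inexact. Itga1 lies on chromosome 13 and rose by 1.44 with chromosomes centred. Adjusted p-values of these 6 genes lay between 4.53e-05 and 0.00243.

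Of 66 intracellular effectors of guidance receptors, 10 were higher in the clone and 22 lower, with a median of -0.12. The called share was 48.5%, against 29.0% of named genes. Of the effectors 55 lay above the lowest array median in at least 1 group, as did 11940 of 22360 named genes. Among such genes, 58.2% of effectors and 51.3% of named genes were called. Centring the arrays on their medians left 5 higher and 24 lower. At a minimum of 1.5-fold, 2 were higher and 14 lower, shares of 3.03% and 21.2% against 4.40% and 6.56% of named genes. The 1.5-fold shares were not matched for level. Farp2, an exchange factor that acts below plexins, was 2.35-fold higher, with 8.45, 8.53 and 8.57 in the clone and 7.22, 7.36 and 7.28 in the population (adjusted p = 2.85e-05). Effectors that were lower included, with no ranking by size, Tiam1, an activator of Rac, at 2.38-fold lower, the collapsin response mediator gene Dpysl3 at 2.28-fold, the small GTPase gene Mras at 2.25-fold and the kinase gene Fyn at 2.15-fold. Ptk2, which encodes focal adhesion kinase, was 1.93-fold lower and Chn1, an inhibitor of Rac that acts below Eph receptors, 1.84-fold lower. Clone levels of Tiam1 (4.63, against 5.88 in the population) and Chn1 (5.04, against 5.92) lay below all array medians. The sizes of the falls of Tiam1 and Chn1 are thus inexact. Ptk2 lies on chromosome 15, and its difference was -0.43 with chromosomes centred, still past the test. Of 11 proteases that cut guidance proteins or mature their precursors, 4 were higher and 1 lower (45.5% called, against 29.0% of named genes). Among genes above the lowest array median in at least 1 group, 55.6% of proteases and 51.3% of named genes were called. At a minimum of 1.5-fold, 1 protease was higher and 0 lower. Pcsk6, a proprotein convertase, was 1.69-fold higher, with 6.74, 6.68 and 6.75 in the clone and 6.06, 5.78 and 6.07 in the population (adjusted p = 0.0011). The plot by role sets these lists beside the members.

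**Figure D3:**
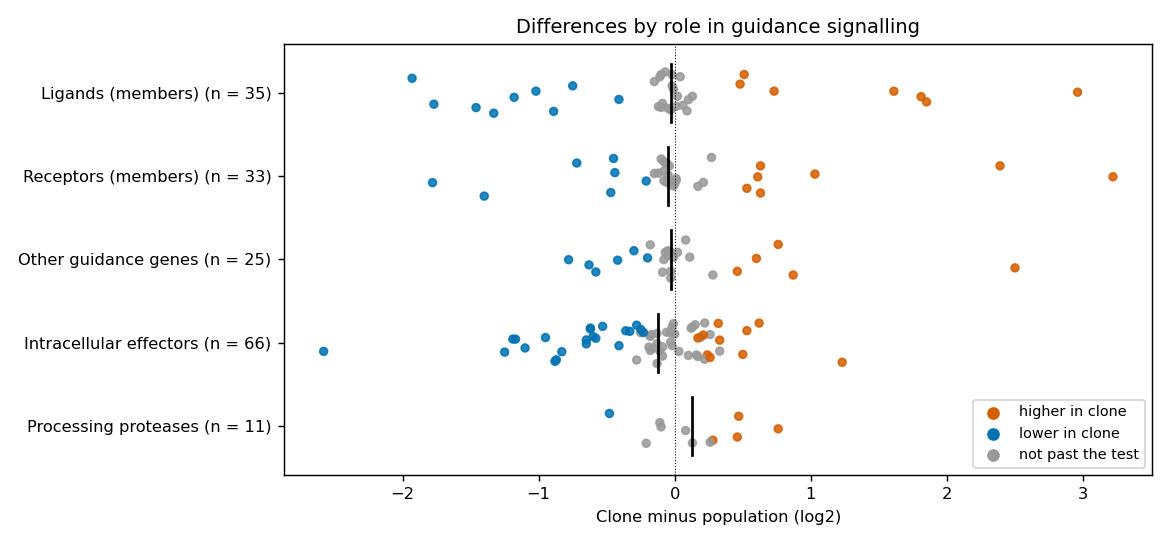
Clone minus population difference (log2) per gene for the 35 ligands and 33 receptors and for 3 lists of related genes (25, 66 and 11 genes measured). Orange points are higher and blue points lower in the clone at an adjusted p under 0.05, grey points did not pass, and black bars are medians; members spread to both sides, with medians of -0.03 for ligands and -0.05 for receptors, while the effectors have a median of -0.12.

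Of the 30 members that passed, 0 turned direction in any of the 17 alternatives that gave them a value, as the plot of other settings shows, with Epha7 at 0.00 when chromosomes were centred. Most of these settings could not turn a direction. Other thresholds, p-values, variance models, the block and the row filter leave the difference as it is. Leaving out 1 array cannot turn a difference between groups that do not overlap, which holds for all 30. Only normalizing again and centring could do so. All 22 members at least 1.5-fold apart passed in every alternative that gave them a value. The minimum fold also chose these 22, so they pass that setting by construction. The authors' p-values gave nearly the same adjusted values as the fit without moderation, so these are not separate checks. The share of named genes called with chromosomes centred is not given here. In that setting 38 members passed, 20 higher and 18 lower: 3 were lost (Epha7, Sema3b and Unc5c) and 11 gained. Of those 11, among them Slit1, Unc5a, Ntn3 and Ntn4, 9 lay below the array medians in both groups, where the setting subtracts the chromosome's shift from levels that barely differ as deposited. Epha7 and Unc5c also lay below the array medians in both groups, so their losses rest on a shift subtracted from low levels too.

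**Figure D4:**
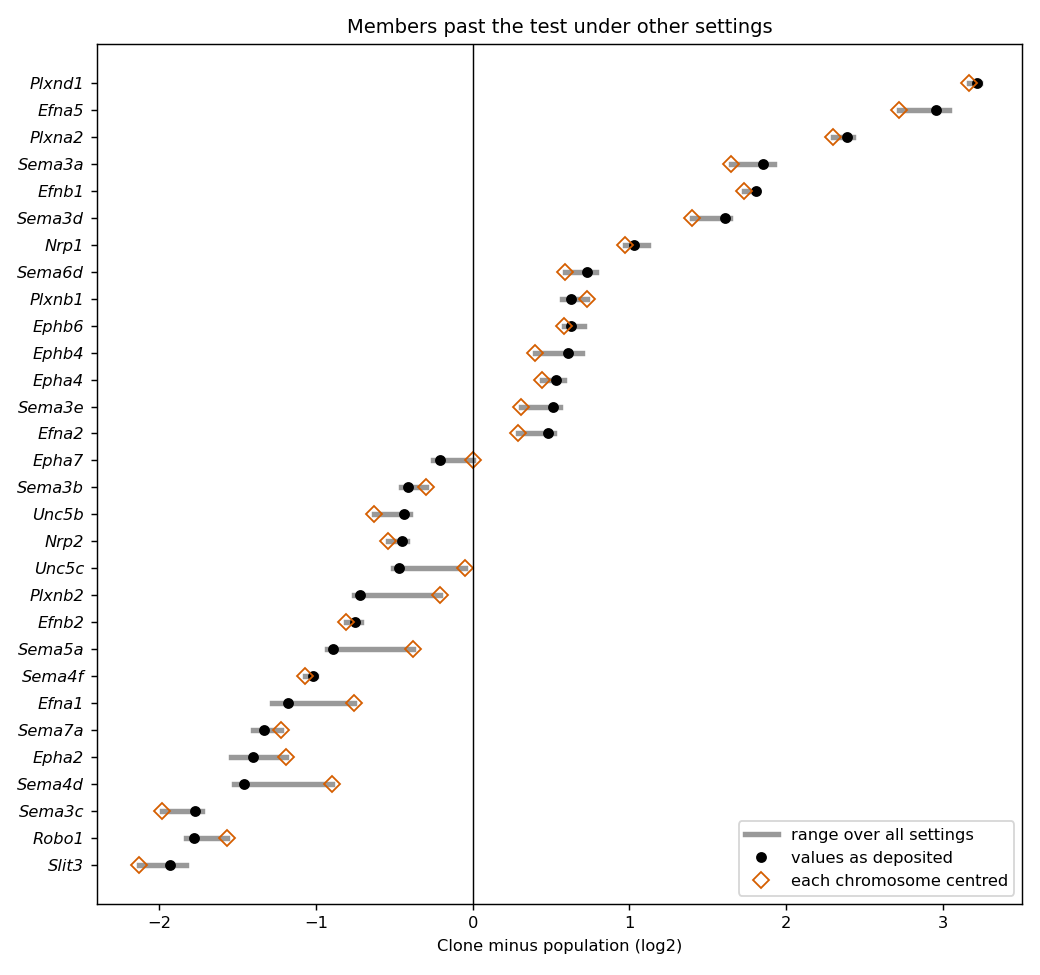
Clone minus population difference (log2) of the 30 members that passed the test: black points are the values as deposited, grey bars the lowest to highest value over all settings, and orange diamonds the values after the median shift of each chromosome was taken off. Plxnd1 ranges only from 3.17 to 3.24, while Plxnb2 ranges from -0.76 to -0.21 and Sema5a from -0.93 to -0.38.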

How the data were processed

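Biotin-labelled RNA was read on Affymetrix arrays, per the labels' protocols. The authors deposited log2 values per row; RMA and Partek are the tools named in the submitters' processing notes, without versions. Array type and genome build: not given in the sources used here. RMA quantile-normalizes arrays, so every level is relative to its array, and it compresses differences of dim genes. The authors' deposited comparison table holds, per the file headers, an unadjusted p-value and a signed fold score per row, and its gene symbols named 25123 of 35556 rows; its log2 fold matched the difference of group means to within 7.8e-05. Its 6 per-array columns carry names found in no label and were left out.

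All rows were fitted with limma 3.58.1 (lmFit, eBayes) in R 4.3.3, clone minus population, two-sided, with Benjamini-Hochberg adjustment over all 35556 rows and a threshold of 0.05. Adjusted p-values are from this fit unless another setting is named. The number of arrays limits the precision. The fit was tested on simulated data. Members, lists and tests were chosen with earlier results of these data known. Named genes were the members past the test and at least 1.5-fold apart, the member with the highest level of each family, up to 8 such genes per further list, and Dcc and Neo1. The values of 1 effector gene chosen by this rule are not reported here. Of 155 list and marker genes 154 were found, 4 under an older name through RefSeq (GRCm38.p6), which also gave chromosomes and promoters. Chromosome medians cover named genes above the median level. Alternatives were normalization, centring, a filter on dim rows, moderation, thresholds, averaged rows, the authors' p-values, the sample number as a block and leaving out each array. Same-numbered clone and population samples deviated from their group means with correlations of -0.18, -0.14 and -0.04. For samples with different numbers these ran from -0.01 to 0.16. The values show no sign of pairing by number, but 3 arrays per group cannot exclude it, and the labels do not say. The main fit treats the samples as unpaired.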

Additional observations from a re-analysis of the deposited data

How the results depend on the processing

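Of the 68 members, 28 to 38 passed in the settings that kept all members, other than the minimum fold (22), against 30. When single arrays were left out, 28 to 30 passed (14 to 15 higher, 14 to 15 lower). With only rows above the median row mean kept, 27 of the 35 members left passed. The share of all rows called under this filter is not given here. In the main fit, 71.8% of members above the lowest array median in at least 1 group were called, against 51.3% of such named genes. With the sample number as a replicate block, 28 members passed, 14 in each direction. Of the 43 named genes, Slit2 turned to -0.02 with arrays centred and to -0.19 with chromosomes centred. It turned to 0.00 without population array 2 (0.00 to 0.04 without single arrays). Ntn1 turned to -0.15 with chromosomes centred. As deposited the differences were 0.02 for Slit2 and 0.06 for Ntn1. Centring the chromosomes takes off a shift with a median of 0.21 for both chromosome 5 (Slit2) and chromosome 11 (Ntn1). The cause of these shifts was not tested. The counts of the further lists moved more. Effectors called higher numbered 10, but 5 with arrays centred, 6 with a variance trend, 5 at an adjusted p under 0.01, 5 with the replicate block and 5 to 7 without single arrays (5 without clone array 1, 5 without population array 1, 6 without population array 3). With chromosomes centred, 8 other guidance genes were higher (against 5) and 2 proteases lower (against 1). With a minimum of 1.5-fold, which by construction leaves fewer genes, 6 other guidance genes (2 lower), 16 effectors (2 higher, 14 lower) and 1 protease (1 higher, 0 lower) remained in the counts, and Nrp2, Unc5b and Neo1 no longer passed. Leaving out single arrays gave 9 to 10 other guidance genes (5 to 6 higher, 4 to 5 lower), 25 to 29 effectors (20 to 22 lower) and 5 proteases. Centring the arrays moved the median difference of all rows to -0.033, from 0.00444. Dim genes had no detection call, so 29 members low in both groups cannot be told from background.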

Other observations

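Clone and population arrays did not overlap for 6 members that missed the threshold. Plxna3, a receptor of Sema3f, had 8.22, 8.03 and 8.04 in the clone and 7.71, 7.90 and 7.88 in the population, and Ephb3 had 6.36, 6.40 and 6.21 in the clone and 6.14, 6.11 and 6.07 in the population. Plxna1 differed by -0.15, Sema6b by -0.15, Epha8 by -0.10 and Sema3g by 0.13. Of named genes 43.1% did not overlap between groups, so these are no more than values to follow up.

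The second rows of Epha10, Ephb1, Sema6b and Unc5d differed by 0.00, -0.02, -0.15 and 0.03 between clone and population, and none passed. For Sema6b both rows gave the same difference of -0.15.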
